A study of Saccharomyces cerevisiae with 13 samples.

Results

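The 2 time zero arrays of a 13-array series give the baseline transcriptome of Saccharomyces cerevisiae strain BY4741, grown at 30°C to saturation in YPGE, a yeast peptone medium whose carbon sources are glycerol and ethanol. They were chosen by their titles, which mark untreated yeast at 0 min, and the genes were ranked by the mean log2 signal of both arrays, with 1 probe set for each of 5449 genes. The cells had received nothing when sampled according to the series design, although the label of these 2 samples names 2% isopropanol as the agent. The other arrays of the same strain, medium and temperature are 6 from cultures given 0.05 mM TFM for 1, 2 or 4 h and 5 from cultures given 2% isopropanol for the same times. Whether the TFM cultures also held isopropanol is not stated. TFM, 3-trifluoromethyl-4-nitrophenol, is a lampricide that acts as an uncoupler of oxidative phosphorylation. The isopropanol group at 2 h has 1 array, because the quality of its other RNA was poor, and the remaining groups have 2 each. The RNA samples are called independent, but nothing says that they came from separate cultures, so the p-values capture the variation among RNA samples alone, part or all of which may be technical.

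BY4741 is a haploid laboratory strain of mating type a with deletions in HIS3, LEU2, MET17 and URA3. Glycerol and ethanol cannot be fermented. Yeast oxidises them through acetyl-CoA and the tricarboxylic acid cycle, draws ATP from the respiratory chain, and makes sugar phosphates by the glyoxylate cycle and gluconeogenesis. When the medium is spent, the culture stops dividing, stores trehalose and glycogen and turns on stress genes. Many yeast enzymes exist as isozymes or paralogs that differ in compartment, in affinity or in the conditions under which their genes are read.

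All levels are log2 RMA signals (RMA is the method that corrected, quantile normalized and summarised the probes), so a step of 1 is a doubling of signal. A signal depends on the binding strength of its probes as well as on the amount of RNA, and has no scale per transcript length. Levels of different genes are therefore set against each other as signals within an array and without a test. An array also averages all cells of a culture, so that a gene read strongly in few cells and one read weakly in all cannot be told apart. Control transcripts carry separate probe sets for their 3′ part, middle and 5′ part. The range over these holds the probe effect together with any change in signal along the transcript. SRB4 had means of 11.99, 10.56 and 8.90 in that order at time zero. At time zero the range over the 3 probe sets was 0.36 for ACT1, 0.65 for RIP1, 1.06 for TDH1, 1.55 for SPT15, 1.68 for WBP1, 2.33 for EAF5 and 3.09 for SRB4. Of 47 genes with more than 1 probe set, 19 had probe sets that differed by 1 or more. Only 2 of the 47 had no probe set shared between transcripts, and there the difference was at most 0.47.

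The 2 time zero arrays lay close together. Their signals correlated across genes with a Pearson r of 0.9984 and a Spearman rho of 0.9981, and the difference between them had an SD of 0.105. Only 4 genes differed by over 0.5. YDR261C-D had 11.27 and 10.34 and YAR009C 11.60 and 10.67, both on shared probe sets, TPO3, a polyamine exporter, had 7.06 and 6.21, and YGR109W-B had 10.64 and 10.12. The SD of the difference was 0.0583 among the 10% of genes with the highest signal, 0.103 in the middle and 0.147 in the lowest 10%. The highest 10% also spanned only 1.52 on the log2 scale, against 4.36 for the lowest 10%, so that distances between the highest signals were small. Whether signal still rises in step with RNA at that level was not tested. Small differences among the highest genes are therefore differences of signal alone.

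**Figure D1:**
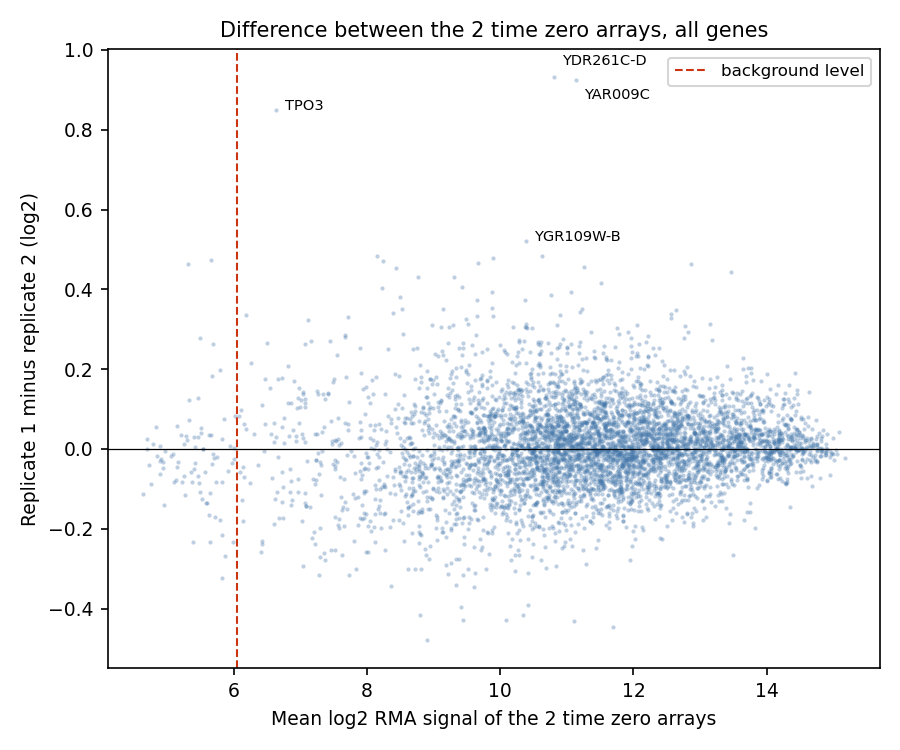
Difference between the 2 time zero arrays (replicate 1 minus replicate 2, log2) against their mean log2 RMA signal, 1 point per gene, with the background level as a dashed line and the 4 genes that differ by over 0.5 named. The cloud narrows toward high signal, where the SD of the difference is 0.0583.

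The median gene had a signal of 11.43, with quartiles at 10.29 and 12.59. The highest 10%, 545 genes or 10% of those measured, began at 13.65, with RGC1 the last inside and ARF2 the first outside by a margin of under 0.01. Both arrays alone placed 527 of the same genes there. The lowest 10%, likewise 10%, held 545 genes up to 9.003, with CDC45 just inside and ECO1 just outside. A background level of 6.04 was set by the highest of 42 control probe sets for Bacillus subtilis transcripts that yeast does not have. At or under it lay 83 genes (1.52%), from YBL008W-A at 6.01 downward, with YKR015C at 6.08 just above. The share of 1.52% is small because most yeast genes gave a signal above that of foreign transcripts, and a gene above the level is not thereby shown to be expressed.

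Of the 4 genes deleted in BY4741, 3 were under the background level. URA3, LEU2 and MET17 gave 4.91 and 4.96, 5.77 and 5.59, and 5.65 and 5.61. HIS3 gave 11.46 and 11.60, near the median gene. The BY4741 allele of HIS3 lacks only part of the gene. LYS2, a lysine biosynthesis gene that is intact in this strain, gave 12.33 and 12.32.

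Of 7 genes that only a cells use, 6 lay above the median gene and 1 was in the highest 10%. ASG7 was the lowest of them and lay below the median gene, with 9.96 and 10.12. The pheromone precursors MFA1 and MFA2 had 14.21 and 14.17, and 13.69 and 13.57, and STE2, the receptor for alpha factor, had 13.10 and 12.96. Among genes of alpha cells, the pheromone precursor genes MF(ALPHA)1 and MF(ALPHA)2 had 7.95 and 7.998, and 6.80 and 6.72. The receptor gene STE3 had 9.26 and 9.30, and SAG1, an agglutinin gene, reached 11.70 and 11.77. MF(ALPHA)1, MF(ALPHA)2 and STE3 are thus examples of genes that a cells do not use whose signal still lay above the background level.

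Markers of respiring cells were in the highest 10% throughout, namely CYC1, COX5A, CIT1, SDH1, ATP1, ADH2, ICL1 and PCK1, whose values follow with their pathways. Of the markers of saturated or quiescent cells, HSP12, HSP26 (14.45 and 14.34), SPI1 (14.60 and 14.57), GPH1 and CTT1 were in the highest 10%, and SIP18, a hydrophilin of dried cells, was at 11.53 and 11.30, near the median gene.

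The strongest signals came from sugar metabolism, the cell wall, translation, mitochondrial ATP production and stress. TDH3, the main glyceraldehyde 3-phosphate dehydrogenase, ranked first with 15.16 and 15.18. HOR7, a small stress-induced membrane protein gene, followed with 15.11 and 15.07, and TEF2, the translation elongation factor eEF1A, with 15.05 and 15.06 from a shared probe set. CCW12 and CWP2, cell wall mannoproteins, had 15.05 in both arrays and 15.00 and 15.03. HSP12, a membrane-stabilising stress protein, had 15.02 and 14.99.

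The 30 highest genes further held PET9, the main ADP/ATP carrier of mitochondria, ATP1 and ATP2, the catalytic core subunits of ATP synthase, and ALD4, the mitochondrial aldehyde dehydrogenase that oxidises acetaldehyde from ethanol. Ribosomal protein genes were represented by RPL4A, RPL3, RPL5, RPS8A, RPP2B and RPL10. ACT1, the actin gene often used as a reference, was at rank 21 with 14.87 and 14.88. Separately, 28 of the 30 highest genes were the same in both arrays. YDR524C-B, which has no standard name, ranked 7 with 14.99 and 15.00, and YNL208W, also unnamed, ranked 27 with 14.82 in both arrays.

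The genes for using ethanol and glycerol were all in the highest 10%, which held 10% of all genes, 11 of 11, with a median of 14.43 beside 11.43 for all genes. On the ethanol side, ADH2, the glucose-repressed alcohol dehydrogenase that turns ethanol into acetaldehyde, had 14.76 and 14.75. ALD4 had 14.90 and 14.89 and ACS1, which makes acetyl-CoA from acetate, had 14.33 and 14.37. On the glycerol side, the uptake symporter STL1 had 14.45 in both arrays, the kinase GUT1 14.37 and 14.36, and the mitochondrial glycerol 3-phosphate dehydrogenase GUT2 14.34 and 14.29. JEN1, the lactate and pyruvate permease, reached 14.58 and 14.65 although neither substrate is named in the medium, and ADY2, the acetate permease, was lowest of the list at 14.004 and 14.06.

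All 13 genes listed for the tricarboxylic acid cycle were in the highest 10% and lay within a narrow band from 14.18 to 14.76, with a median of 14.42. The list leaves out the citrate synthase CIT3, which had 13.19 in both arrays and was outside the highest 10%. MDH1, mitochondrial malate dehydrogenase, had 14.76 in both arrays and CIT1, mitochondrial citrate synthase, 14.75 in both. The lowest were LSC2, a subunit of succinyl-CoA ligase, with 14.19 and 14.20, and IDH1, a subunit of NAD-dependent isocitrate dehydrogenase, with 14.21 and 14.16. Of the glyoxylate cycle and gluconeogenesis, 10 of 11 genes were in the highest 10%. PCK1, the phosphoenolpyruvate carboxykinase that starts gluconeogenesis, led with 14.76 and 14.75, and FBP1, fructose bisphosphatase, had 14.52 in both arrays. ICL1, the isocitrate lyase that opens the glyoxylate cycle, had 14.03 and 13.90. The exception was MAE1, the mitochondrial malic enzyme, with 11.20 and 11.23.

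In the respiratory chain, 23 of 25 listed nuclear genes were in the highest 10%, with a median of 14.22. COX5B (11.66 and 11.69) and CYC7 (11.75 and 11.56) stand in the list of hypoxic genes and are not counted here. QCR7, a subunit of the cytochrome bc1 complex, had 14.58 and 14.51, and the succinate dehydrogenase genes SDH1 and SDH3 had 14.54 and 14.53, and 14.49 and 14.54. Outside the highest 10% were QCR9, another bc1 subunit, at 13.55 in both arrays, and NDE2, an external NADH dehydrogenase, at 11.45 and 11.48. ATP synthase had 15 of 17 genes in the highest 10%, led by ATP1 with 14.88 and 14.89, while the small subunit genes ATP20 (13.57 and 13.50) and ATP19 (13.55 and 13.41) fell just short. The mitochondrially encoded subunits are not among the 5449 genes, so no level is given for them.

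The mitochondrial ribosome, which translates those subunits, differed in level from the chain it serves. Its 53 measured genes had a median of 11.99 and 1 of them, MRPS12 with 13.92 and 13.97, was in the highest 10%. In all, 46 of the 53 lay above the median of all genes, and none was in the lowest 10%. MRPL19 was lowest with 10.62 and 10.60.

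Genes of glycolysis had the highest median of the lists, 14.76, in cells whose medium offered no sugar. All 17 measured members of the list were in the highest 10%. The list leaves out isozymes that were not, namely PYK2 (13.01 and 13.11), GPM2 (11.71 and 11.81), GPM3, PDC5 and PDC6. Its count and median therefore describe the listed genes alone. Most of these enzymes also run in the gluconeogenic direction, among them PGK1 (14.94 and 14.96), FBA1 (14.88 and 14.90) and GPM1 (14.77 and 14.76). The steps that run only toward pyruvate were in the highest 10% as well. PFK1 and PFK2, the phosphofructokinase subunits, had 14.19 and 14.20, and 14.20 and 14.17, close to their counterpart FBP1, and CDC19, pyruvate kinase, had 14.75 and 14.74. HXK2, the hexokinase typical of glucose-grown cells, was lowest with 13.80 and 13.79.

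Carbohydrate stores and stress genes were high for the most part. Of 16 genes for trehalose and glycogen, 11 were in the highest 10%, with a median of 14.06. TPS1, trehalose 6-phosphate synthase, had 14.58 and 14.57 and GSY2, glycogen synthase, 14.55 in both arrays, while GLG2, a glycogenin that primes glycogen, had 11.80 and 11.85. Of 30 general stress genes, known as targets of the factors Msn2 and Msn4, 18 were in the highest 10%, with a median of 14.14, but the list spread widely. At its lower end, PAI3, an inhibitor of a vacuolar protease, had 8.98 and 8.55, MOH1 9.61 and 9.49, and SSA3, a stress-induced Hsp70, 10.59 and 10.53.

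Chaperone and redox genes showed a similar level. The 20 cytosolic and related chaperone genes had a median of 13.64, with 10 in the highest 10%, from SSA1 (14.70 and 14.56) and the mitochondrial HSP60 (14.65 and 14.60) down to SSA4 (12.24 and 12.15). The 26 redox defence genes had a median of 13.55, with 11 in the highest 10%, from the superoxide dismutase SOD1 (14.70 and 14.68) to the glutathione peroxidase homolog GPX2 (10.12 and 10.10). All 31 proteasome genes lay above the median gene and within a band from 13.01 to 14.04, with 6 in the highest 10%. RPT1, an ATPase of the proteasome base, led with 14.03 and 14.04, and RPT2, another of these ATPases, was lowest with 13.03 and 12.98.

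Fat use and synthesis were at intermediate to high levels. Of 20 peroxisome and beta-oxidation genes, 3 were in the highest 10%, FOX2, the multifunctional enzyme of beta-oxidation, with 14.05 and 14.10, and the carnitine acetyltransferases CAT2 and YAT1. The peroxin genes PEX13 (10.65 and 10.62) and PEX21 (10.26 and 10.20) were lowest. Fatty acid synthase had FAS2 at 14.39 and 14.36 and FAS1 at 14.38 and 14.35. All 22 ergosterol genes lay above the median gene, from ERG10 at 14.04 and 14.09 to ERG5 at 11.76 and 11.75.

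**Figure D2:**
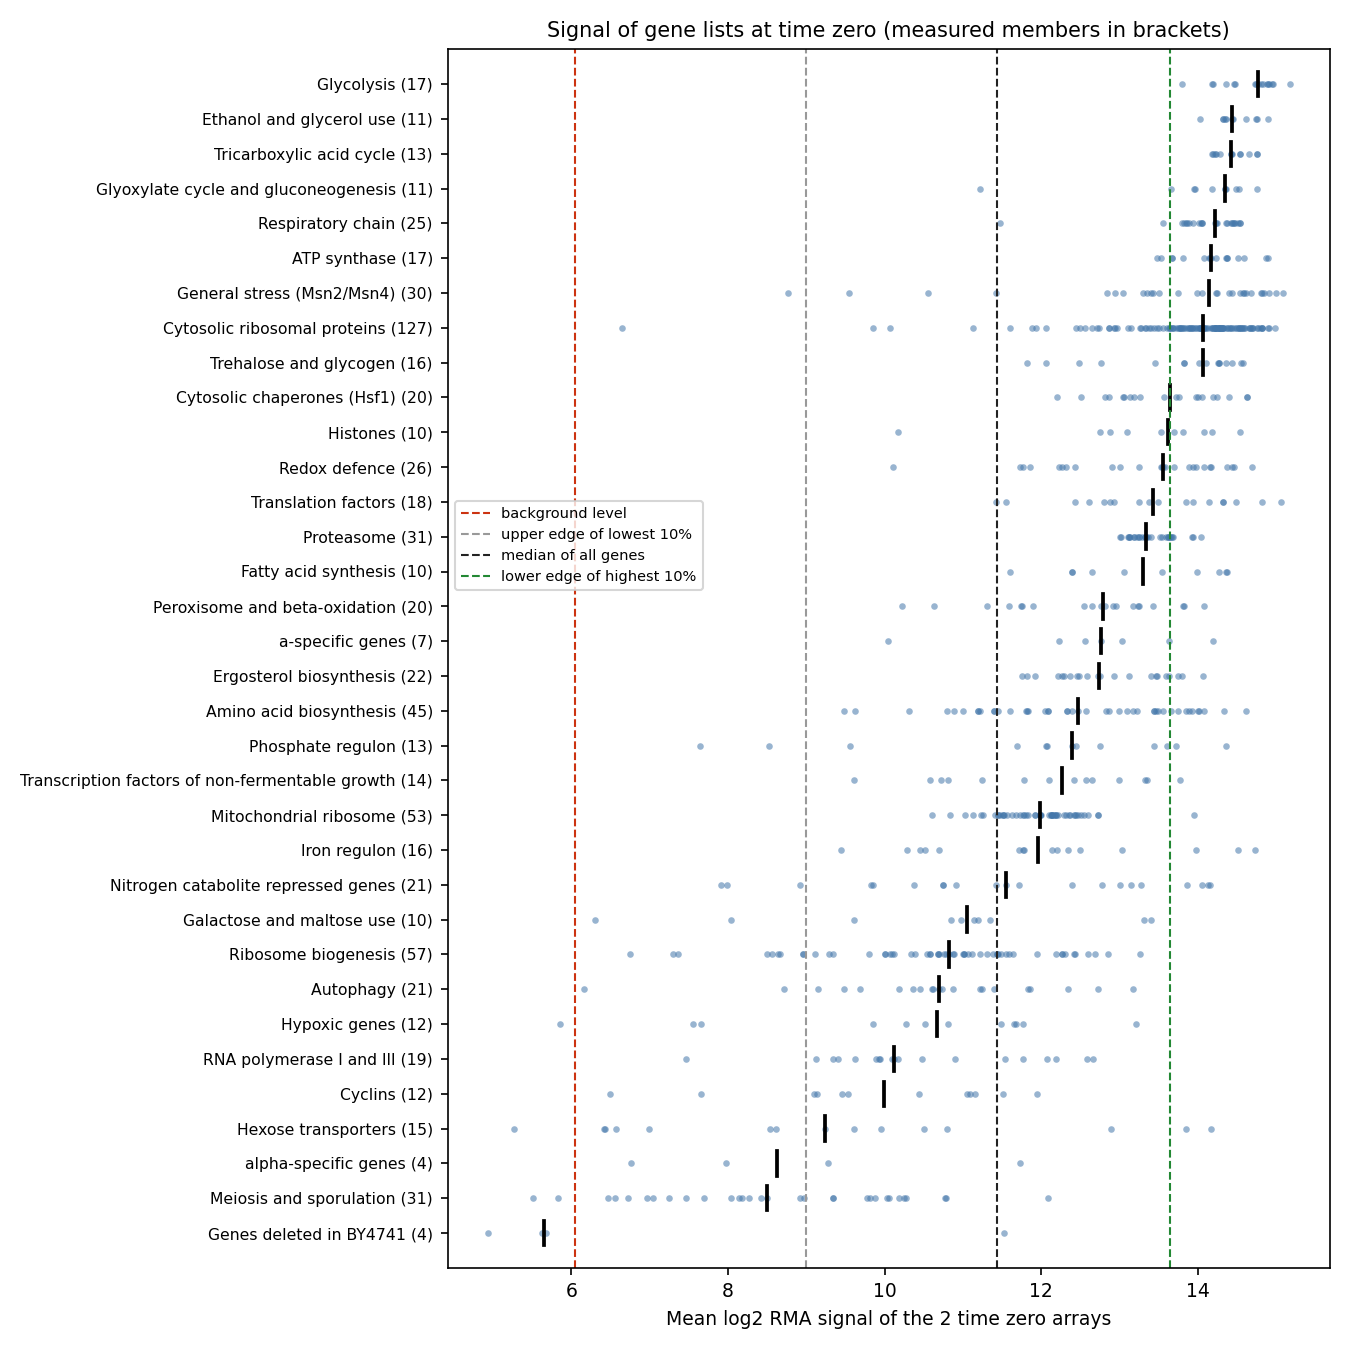
Mean log2 RMA signal of the 2 time zero arrays for the members of each gene list, 1 point per gene and a black bar at the list median, ordered by median, with dashed lines at the background level, at the edges of the lowest and highest 10% and at the median of all genes. Glycolysis, ethanol and glycerol use and the tricarboxylic acid cycle lie wholly right of 13.65, while meiosis and sporulation genes have a median of 8.49.

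The machinery of protein synthesis separated into parts with high and with low signal. Of 127 measured cytosolic ribosomal protein genes, 93 were in the highest 10%, with a median of 14.07, and 123 lay above the median gene. RPL41A, which encodes a very short protein, stood apart with 6.59 and 6.70. Translation factors had a median of 13.43 with 8 of 18 in the highest 10%, from TEF2 and the eEF2 gene EFT2 (14.80 and 14.82, shared probe set) down to the eIF4G genes TIF4632 (11.61 and 11.49) and TIF4631 (11.48 and 11.36).

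Genes that build ribosomes were lower in signal than the ribosome's own genes. None of 57 ribosome biogenesis genes was in the highest 10% and 9 were in the lowest, with a median of 10.82. NOP58, a box C/D snoRNP protein, was highest with 13.29 and 13.24, while the pre-rRNA processing genes SSF1 (7.42 and 7.30), MAK16 (7.28 and 7.31) and RRP36 (6.75 and 6.74) were lowest. RNA polymerases I and III, which read ribosomal RNA and transfer RNA genes, had a median of 10.12 over 19 genes. Highest were the polymerase I subunit genes RPA135 with 12.65 and 12.67 and RPA190 with 12.58 in both arrays. RPC17 was lowest with 7.47 and 7.46.

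Cell cycle and differentiation genes had low signals. None of 12 cyclin genes was in the highest 10%, and the median was 9.99. CLN3, the G1 cyclin that acts upstream of the others, was highest with 11.81 and 12.09, and the S phase cyclin CLB6 was lowest with 6.63 and 6.37. Histone genes, whose mRNA is made in S phase, were nonetheless high, with a median of 13.61 over 10 genes and HTA1, histone H2A, at 14.54 and 14.55. Of 31 meiosis and sporulation genes 18 were in the lowest 10%, the largest share of any list with over 10 members. IME1, the inducer of meiosis, stood above the rest with 12.06 and 12.12, and SPS2 (5.45 and 5.58) and REC114 (5.79 and 5.87) were near background.

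Autophagy, which recycles cell contents in starved cells, was represented by 21 genes with a median of 10.70, below the 11.43 of all genes. ATG8, whose product coats the autophagosome, had 13.21 and 13.14, ATG1, the initiating kinase, 10.18 and 10.19, and ATG16 6.12 and 6.19. Signals spread widely within the phosphate and iron regulons. PHO89, a sodium-phosphate symporter, had 14.28 and 14.43 and PHO84, the high-affinity phosphate transporter, 13.64 and 13.58, while PHM6 of the same regulon had 7.57 and 7.72. Of the iron regulon, the cell wall mannoproteins FIT3 (14.71 and 14.74) and FIT2 (14.52 and 14.51), which retain iron carriers, were far above the reductase FRE2 (9.396 and 9.50).

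The 21 genes under nitrogen catabolite repression had a median of 11.55 and means that spread from 7.91 to 14.15, with 4 genes in the highest 10% and 3 in the lowest. The proline permease PUT4 had 14.12 and 14.14 and the proline oxidase PUT1 13.86 and 13.87, whereas the allantoin genes DAL1 (7.89 and 7.93) and DAL4 (7.86 and 8.12) were in the lowest 10%. Other allantoin genes were higher, DAL2 with 11.73 and 11.70 and DAL5 with 10.70 and 10.79. Among genes of other sugars, SUC2, invertase, had 13.39 and 13.41, and the galactose genes GAL7 and GAL10 had 7.95 and 8.13, and 6.32 and 6.28. The transcription factors of growth on non-fermentable carbon had a median of 12.26. HAP4, the activating subunit that raises respiratory genes, was highest with 13.83 and 13.72, followed by RSF2 (13.39 and 13.32) and CAT8 (13.36 and 13.28), the activator of gluconeogenic genes, while ERT1 was lowest with 9.56 and 9.65.

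The bottom of the ranking was rich in genes without a standard name, which made up 51 of the 83 genes near background (61.4%) and 180 of the lowest 10% (33.0%), against 19 of the highest 10% (3.49%) and 9.16% of all genes. Among the 20 lowest named genes, MEI5 (4.72 and 4.80) and SAE3 (4.86 and 4.92) encode partners of a meiotic recombinase, and HOP2 (5.15 and 5.18) and MND1 (5.53 and 5.67) act together in meiotic chromosome pairing. SPO74 (5.21 and 5.28) belongs to the meiotic spindle pole. The group also held URA3, the silent mating cassette gene HMLALPHA1 (5.47 and 5.44) and the hexose transporter gene HXT15. HTL1, a subunit of the RSC chromatin remodeler, had 5.55 and 5.08 and thus varied more between the arrays than the other low genes given here.

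Isozymes and paralogs were compared in 52 families, of which 50 had at least 2 members among the measured genes. Some families also hold different enzymes or subunits, such as FBP1 beside PFK1 and PFK2, GPD1 beside GUT1 and GUT2, and RNR4 beside RNR1 and RNR3. Their differences are part of the counts below. In each family the member of highest signal was set against every other, which gave 97 differences. In 63 of them (64.9%) the difference was at least 1 in both arrays, and these lay in 36 families. Setting the highest member against the others favours large differences. The share for sets of unrelated genes was not computed, so the 64.9% is not read as a trait of isozymes. The differences themselves were steady, since a difference varied between the 2 arrays by a median of 0.0768 and by at most 0.446. Set against the control transcripts, 24 of the 97 were larger than the 3.09 found within SRB4, a range that also holds position along the transcript. Of the 97, 40 were at least 2.

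Pairs known for use with and without oxygen differed in the same direction. HYP2, the aerobic form of translation factor eIF5A, had 14.12 and 14.15, whereas its anaerobic copy ANB1 had 7.61 and 7.69. PET9 had 14.92 and 14.99, AAC1 had 13.08 and 13.09, and the anaerobic carrier gene AAC3 had 7.596 and 7.52. COX5A, the aerobic subunit V of cytochrome oxidase, had 14.42 in both arrays and its hypoxic form COX5B 11.66 and 11.69. For cytochrome c the values were 13.95 and 13.83 for CYC1 and 11.75 and 11.56 for CYC7. The margins of HYP2 over ANB1 and of PET9 over AAC3 exceeded the largest range within a control transcript, and those of PET9 over AAC1, COX5A over COX5B and CYC1 over CYC7 did not.

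ROX1, which encodes the repressor of hypoxic genes, had 13.28 and 13.14, the highest signal of its list. DAN1, a cell wall gene of anaerobic cells, was lowest with 5.89 and 5.82, under the background level. Among other mitochondrial proteins, the porin POR1 had 14.73 and 14.74, against 10.14 and 10.35 for its paralog POR2. The external NADH dehydrogenase NDE1 had 14.44 and 14.43, the internal NDI1 13.81 and 13.78, and NDE2 was about 3 lower than NDE1 (2.99 and 2.95). Of the pyruvate carriers, MPC3, the subunit of respiring cells, had 14.80 and 14.77, against 14.23 and 14.32 for MPC2 of fermenting cells. This difference lies within the ranges found within control transcripts.

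The alcohol dehydrogenases covered most of the scale. ADH1, the enzyme that makes ethanol in fermenting cells, had 14.96 in both arrays and stood 0.20 and 0.21 above ADH2, the enzyme of ethanol use. The mitochondrial ADH3 followed with 14.38 and 14.40. ADH7 was lowest with 8.11 and 8.27. Among aldehyde dehydrogenases, ALD4 and the cytosolic ALD6 (14.76 and 14.73) were highest, and the stress-induced ALD3 (13.11 and 12.99) and ALD2 (11.25 and 11.23) were lower. ACS1 and ACS2, the acetyl-CoA synthetases linked to respiratory and fermentative growth, differed by 0.47 and 0.55.

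Glycolytic families differed in how far apart their members lay. PDC1, pyruvate decarboxylase, had 14.79 and 14.81, whereas PDC5 had 10.83 and 10.88 and PDC6 10.54 and 10.47. GPM1, phosphoglycerate mutase, lay 5.23 and 5.07 above GPM3, one of its homologs, which have little known activity. CDC19 stood above PYK2, a pyruvate kinase of glucose-poor cells, by 1.74 and 1.63. The hexokinases gave another order, with GLK1 (14.91 in both arrays) and HXK1 (14.85 and 14.82) close together and HXK2 lower by 1.11 and 1.12. ENO1 and ENO2, the enolases, differed by 0.39 and 0.43.

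Compartment-specific forms of the carbon pathways differed by little in some cases and by over 1 in others. The citrate synthase CIT1 of mitochondria and CIT2 of peroxisomes differed by 0.26 and 0.27, and CIT3 was lower at 13.19 in both arrays. Mitochondrial MDH1 lay 0.36 and 0.44 above MDH2, the cytosolic malate dehydrogenase of gluconeogenesis, and 1.03 and 1.02 above the peroxisomal MDH3. For NADP isocitrate dehydrogenase, mitochondrial IDP1 (13.93 and 13.98) and cytosolic IDP2 (13.998 and 13.90) changed order between the arrays, and the peroxisomal IDP3 was 1.27 and 1.37 below IDP1. MLS1, malate synthase, was 3.89 and 3.74 above DAL7, the form that serves allantoin use.

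**Figure D3:**
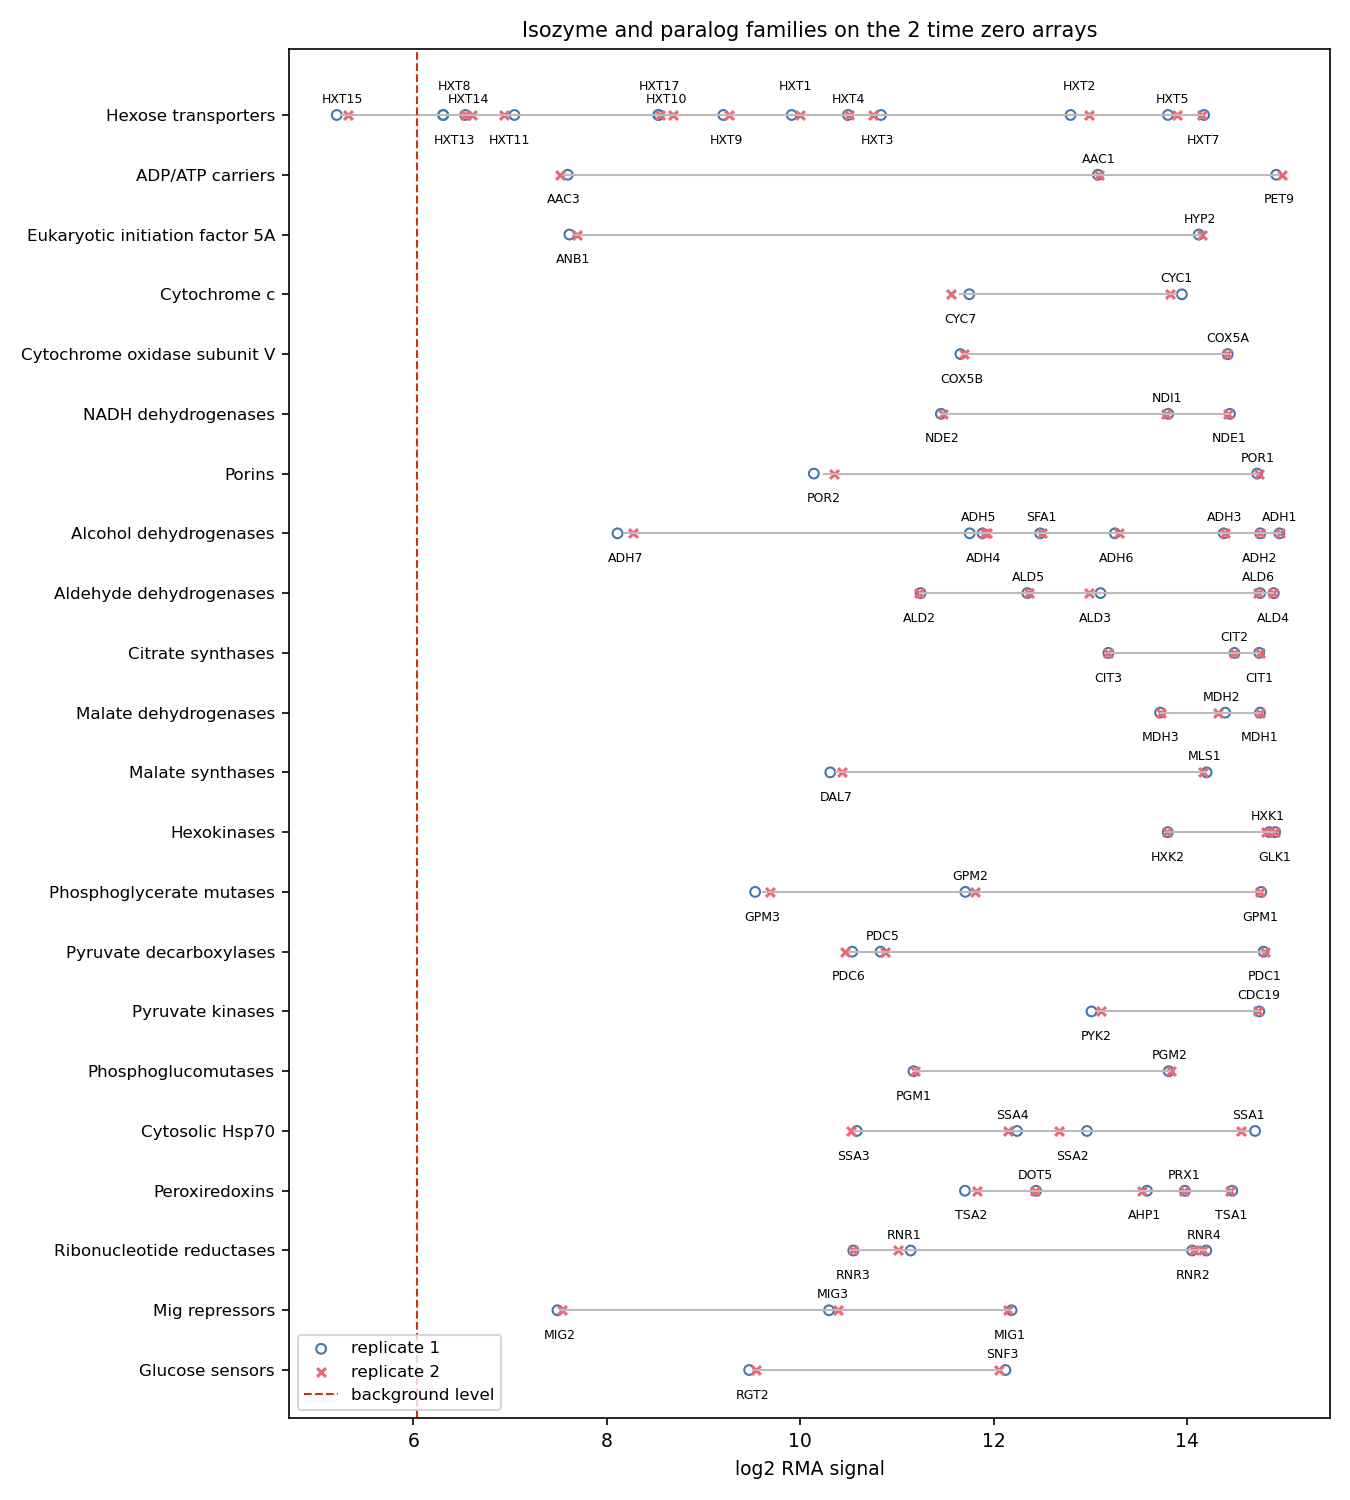
log2 RMA signal of the members of 22 isozyme and paralog families on time zero replicate 1 (circles) and replicate 2 (crosses), 1 row per family with a grey line over its range, and the background level as a dashed line. Hexose transporters span the widest range, HYP2 and ANB1 lie 6.51 and 6.47 apart, and ADH1 and ADH2 nearly coincide.

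Hexose transporters, the carriers that take up glucose, had the widest spread of any family. Of 15 genes in their list, 2 were in the highest 10% and 7 in the lowest, with a median of 9.24. HXT7, a high-affinity carrier, had 14.18 and 14.16 from a shared probe set, and its near-identical copy HXT6 is not measured separately. HXT5, a carrier of slowly growing and starved cells, had 13.80 and 13.90, and HXT2, another high-affinity carrier, 12.80 and 12.98. The low-affinity carriers of high glucose were lower, HXT3 with 10.84 and 10.76 and HXT1 with 9.91 and 9.996. Among the minor carriers, HXT8 had 6.31 and 6.55, HXT13 had 6.31 and 6.54, and HXT15 (5.21 and 5.32, shared probe set) was under the background level.

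Glucose sensing genes also differed. SNF3, the sensor of low glucose, had 12.12 and 12.06, against 9.47 and 9.55 for RGT2, the sensor of high glucose. Of the glucose repressors, MIG1 had 12.19 and 12.15, MIG3 10.30 and 10.39 and MIG2 7.49 and 7.54.

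Among stress families, the cytosolic catalase CTT1 had 14.46 and 14.41 and the peroxisomal CTA1 13.23 and 13.27. The Hsp70 genes SSA1 and SSA2, both present in unstressed cells, had 14.70 and 14.56, and 12.97 and 12.67, and the heat-induced SSA3 was lowest. By signal, SSA2 thus lay closer to SSA4 (12.24 and 12.15) than to SSA1, although SSA1 and SSA2 are nearly identical in sequence. The margin of SSA1 over SSA2, 1.74 and 1.89, is smaller than the 3.09 found within the control transcript SRB4. TSA1, the main peroxiredoxin, was 2.76 and 2.62 above its paralog TSA2. SOD1 and SOD2, the cytosolic and mitochondrial superoxide dismutases, differed by 0.33 and 0.31, and HSC82, the constitutive Hsp90, lay 0.38 and 0.59 above the heat-induced HSP82.

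Other families with large differences were the plasma membrane proton pumps, with PMA1 3.44 and 3.45 above PMA2, and the ribonucleotide reductases. There the small subunit genes RNR4 (14.20 and 14.16) and RNR2 (14.05 and 14.07) exceeded the large subunit genes RNR1 (11.14 and 11.01) and RNR3 (10.55 and 10.54). The phosphoglucomutase PGM2 was 2.64 and 2.65 above PGM1. BAT2, the cytosolic branched-chain aminotransferase, had 13.90 and 13.88, against 12.63 and 12.52 for the mitochondrial BAT1. GPD1, the glycerol 3-phosphate dehydrogenase of osmotic stress, had 14.82 in both arrays and GPD2 11.48 and 11.92. Among pairs with little difference were TAL1 and NQM1, the transaldolases, which changed order between the arrays, and GSY2 and GSY1, 0.25 and 0.30 apart.

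Most ribosomal proteins of yeast are encoded by a pair of genes called A and B. Both copies were measured for 50 proteins, and for 36 of these neither copy was on a shared probe set. This set of pairs was chosen after their values were seen. In 13 of the 36 (36.1%) the copies differed by at least 1 in both arrays, with the A copy higher in 8 and the B copy in 5, and the median difference was 0.56 in size. RPL22A exceeded RPL22B by 3.90 and 4.09, RPS14A exceeded RPS14B by 2.49 and 2.52, and RPL15A exceeded RPL15B by 2.28 and 2.40. In the other direction, RPS9A minus RPS9B was -3.92 and -3.96 and RPS27A minus RPS27B was -1.74 and -1.76. Only the RPL22 and RPS9 pairs went past the 3.09 seen within a control transcript.

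**Figure D4:**
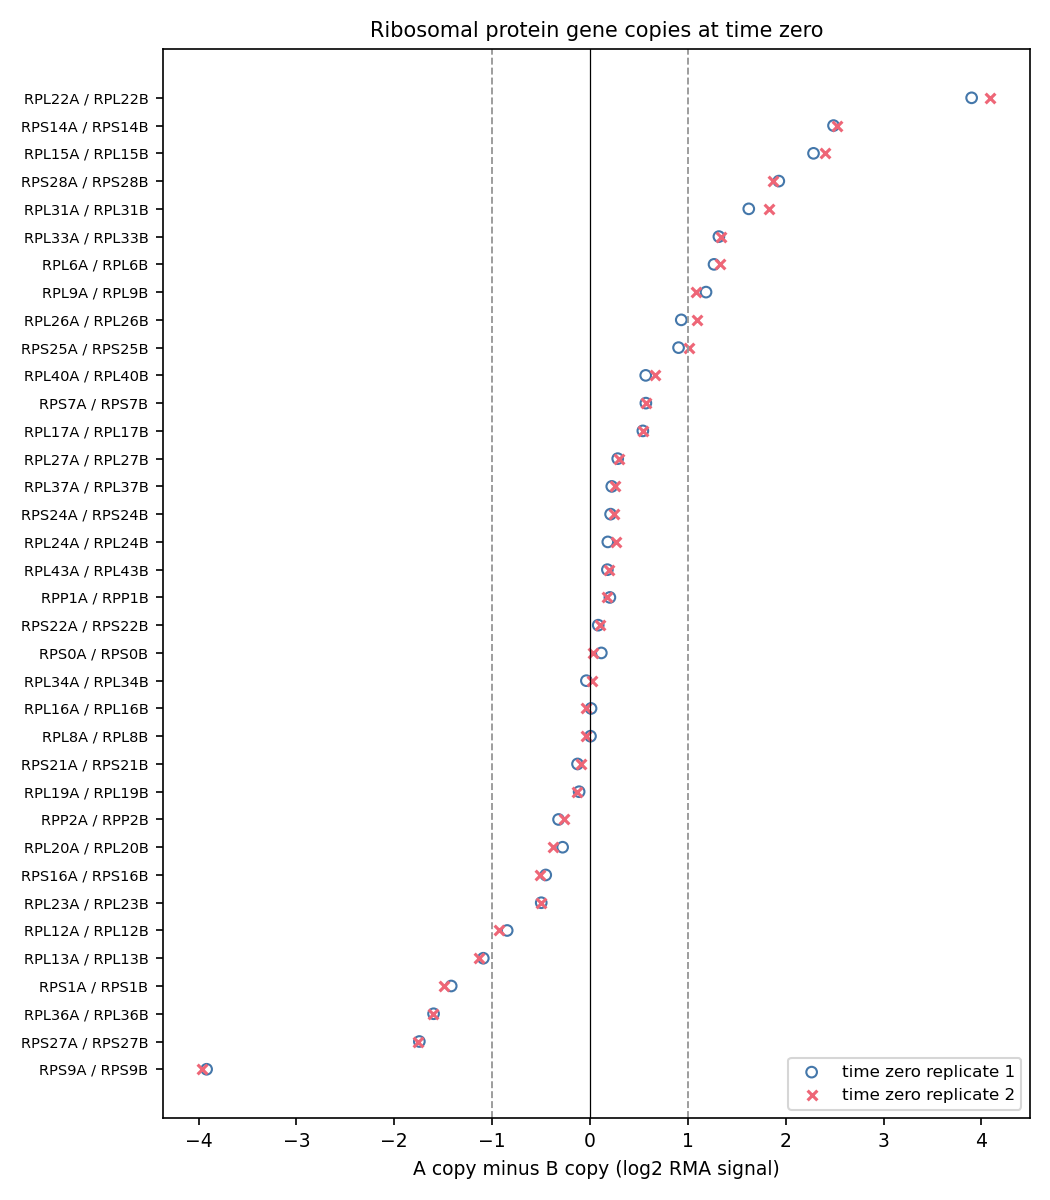
Signal of the A copy minus that of the B copy (log2) of 36 ribosomal protein gene pairs on unique probe sets, for time zero replicate 1 (circles) and replicate 2 (crosses), with dashed lines at a difference of 1 either way. RPL22A lies about 4 above RPL22B (3.90 and 4.09), RPS9A lies as far below RPS9B, and most pairs fall between the dashed lines.

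Setting the same probe set against itself on other arrays removes the probe effect. The baseline was first compared with the 5 isopropanol arrays in 1 limma model of all 13 arrays, as time zero minus the average of the isopropanol group means at 1, 2 and 4 h. No gene of 5449 passed an adjusted p of 0.05 in limma (0.0%), and 52 had an unadjusted p under 0.05. That is fewer than uniform p-values would give. With only the groups compared in the fit, 105 had an unadjusted p under 0.05. The lack of calls does not show that levels were equal. With a trended and robust variance limma called 1 gene. The 5 genes of smallest p were CTR1, FRE1, FET4, ERO1 and FRE7, and each was lower at time zero in the estimate. Those that handle metals are the copper transporter gene CTR1, the reductase genes FRE1 and FRE7 and the iron transporter gene FET4. ERO1 encodes the thiol oxidase of the endoplasmic reticulum.

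CTR1 had 11.99 and 11.90 at time zero, against 12.26 and 12.21 at 1 h, 12.84 at 2 h and 12.37 and 12.61 at 4 h of isopropanol. All 5 isopropanol arrays lay above both time zero arrays. The 5 genes were picked by smallest p, which favours such a separation, and its share among all genes was not counted. The log2 difference was -0.58 with an adjusted p of 0.227 in limma, and 0.0412 with the trended and robust variance. FRE1 had 10.57 and 10.46 at time zero, against 10.84 to 10.95 on the isopropanol arrays, again without overlap. Its difference was -0.40 with an adjusted p of 0.294 in limma. ERO1 and FRE7 did not overlap either, but FET4 did, with 9.96 on time zero replicate 2 and 9.93 on isopropanol 1 h replicate 2.

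The ranking of the baseline was close to that of the isopropanol arrays. Of its 545 genes in the highest 10%, 531 were also in the highest 10% by the mean of the 5 isopropanol arrays. Of the lowest 10%, 525 were also in the lowest 10% there. Of the 63 separated isozyme differences, 59 were at least 1 in all 5 isopropanol arrays. Among the lists, the chaperone genes had the largest median difference, -0.21 beside 0.01 for all genes, with none of them called. Of these 20 genes, 10 were in the highest 10% at time zero and 13 by the isopropanol arrays.

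Time zero was next set against TFM at 4 h, using the same time zero arrays as the isopropanol comparison. Limma called 3478 of 5449 genes (63.8%), of which 1842 (33.8%) were higher and 1636 (30.0%) lower at time zero, and the median difference of all genes was 0.01. After cyclic loess normalization 1773 were higher and 1809 lower. The highest 10% shared 398 genes with that of the TFM 4 h arrays and the lowest 10% 439. Because quantile normalization gives each array the same distribution, these differences are relative to the array as a whole. The TFM 4 h arrays had a larger drop in signal toward the 5′ end over 7 control transcripts, 1.63 and 1.40, against 1.19 and 1.21 at time zero. Spiked hybridization controls averaged 12.23 and 11.45 on the TFM 4 h arrays, against 11.41 and 11.55 at time zero. The part of both measures in the differences was not tested.

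Counts of the carbon and respiratory lists are read beside the 33.8% of all genes that were higher and the 30.0% that were lower at time zero. Of the 13 tricarboxylic acid cycle genes 1 was higher and 1 lower at time zero, with a median difference of -0.02, and of 25 respiratory chain genes 4 were higher and 3 lower. ATP synthase had 8 of 17 genes higher at time zero and none lower, with a median of 0.16. Of the glyoxylate cycle and gluconeogenesis, 7 of 11 were lower at time zero and none higher, with a median of -0.23. These lists lie near the top of the signal range.

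Larger shares were called for ribosomal proteins and peroxisomes. Of 127 cytosolic ribosomal protein genes 124 were higher at time zero, and none lower, with a median of 0.80, where 33.8% of all genes were higher. RPS0B, a small subunit protein, had 13.85 and 13.84 at time zero, against 11.44 and 11.97 at TFM 4 h, a difference of 2.14 ± 0.192 (SE) with an adjusted p of 1.14e-05 in limma. The groups did not overlap. RPL22A had a difference of 1.65, with an adjusted p of 7.83e-07 in limma, while RPL22B, the weaker copy, had -0.11 with an adjusted p of 0.234. Of 57 ribosome biogenesis genes 34 were higher and 11 lower at time zero, with a median of 0.38.

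Of 20 peroxisome and beta-oxidation genes, 19 were lower at time zero, where 30.0% of all genes were lower, and the median was -0.79. POT1, the thiolase of beta-oxidation, had 12.70 and 12.82 at time zero, against 14.26 and 14.08 at TFM 4 h (difference -1.41 ± 0.0887 SE, adjusted p 2.09e-06 in limma). Of 14 transcription factors of non-fermentable growth 9 were lower at time zero, HAP4 among them with 13.83 and 13.72, against 14.39 and 14.50 (-0.67, adjusted p 4.42e-05 in limma). Of 21 nitrogen genes 15 were lower at time zero, with a median of -0.51. All 7 a-specific genes were higher at time zero, with a median of 1.12, and MFA1 had 14.21 and 14.17, against 13.02 and 13.16 at TFM 4 h.

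The largest differences belonged to genes that were lower at time zero. YOR338W had 9.29 and 9.46 at time zero, against 13.60 and 13.79 at TFM 4 h (-4.32, adjusted p 7.83e-07 in limma). MIG2 had 7.49 and 7.54, against 11.72 and 11.52 (-4.10, adjusted p 4.30e-06). HXT1 had 9.91 and 9.996, against 14.15 and 13.94 (-4.09, adjusted p 5.18e-06). All 3 lay far apart between the groups, and HXT3 and YKR075C followed with -3.73 and -3.54. Higher at time zero were YOL014W by 2.50, YER053C-A by 2.21, RPS0B by 2.14 and UTR2, a cell wall crosslinking enzyme gene, by 2.13. MF(ALPHA)1 had 7.95 and 7.998 at time zero, against 5.44 and 5.88 at TFM 4 h, which are under the background level, and no fold is given for it.

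Several margins among paralogs were narrower on the TFM 4 h arrays than at baseline, and some orders were reversed. The margin of HXT7 over HXT1 was 4.27 and 4.16 at time zero, against 0.39 and 0.66 at TFM 4 h, and that over HXT3 was 3.34 and 3.40, against 0.15 and -0.08. MIG1 exceeded MIG2 by 4.70 and 4.61 at time zero, against 2.02 and 2.10. Of the 97 differences, 8 had the opposite direction in both TFM 4 h arrays. Only CTT1 over CTA1, MEP1 over MEP2 and IDP1 over IDP3 were at least 1 at time zero. The smallest there, CAT2 over YAT1, was 0.0368 and 0.0021. The 8 include the catalases, with CTT1 over CTA1 by 1.23 and 1.14 at time zero, against -0.18 and -0.32. They also include the ammonium permeases, with MEP1 over MEP2 by 1.89 and 2.18, against -0.12 and -0.10.

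The glutamate dehydrogenases belong to the same set, with GDH1 over GDH3 by 0.98 and 0.96 at time zero, against -0.66 in both TFM 4 h arrays. GDH3 itself had 13.34 and 13.39 at time zero, against 14.69 and 14.67 (-1.32 ± 0.0827 SE, adjusted p 2.09e-06 in limma). The opposite was seen for BAT2 over BAT1, whose margin was 1.27 and 1.36 at time zero, against 2.63 and 2.72. Of the 63 separated differences, 48 were still at least 1 in both TFM 4 h arrays and 59 kept their direction in all 13 arrays. Among them, HYP2 over ANB1 was 6.51 and 6.47 at time zero, against 7.11 and 6.98, and PET9 over AAC3 was 7.33 and 7.47, against 6.96 and 7.77.

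**Figure D5:**
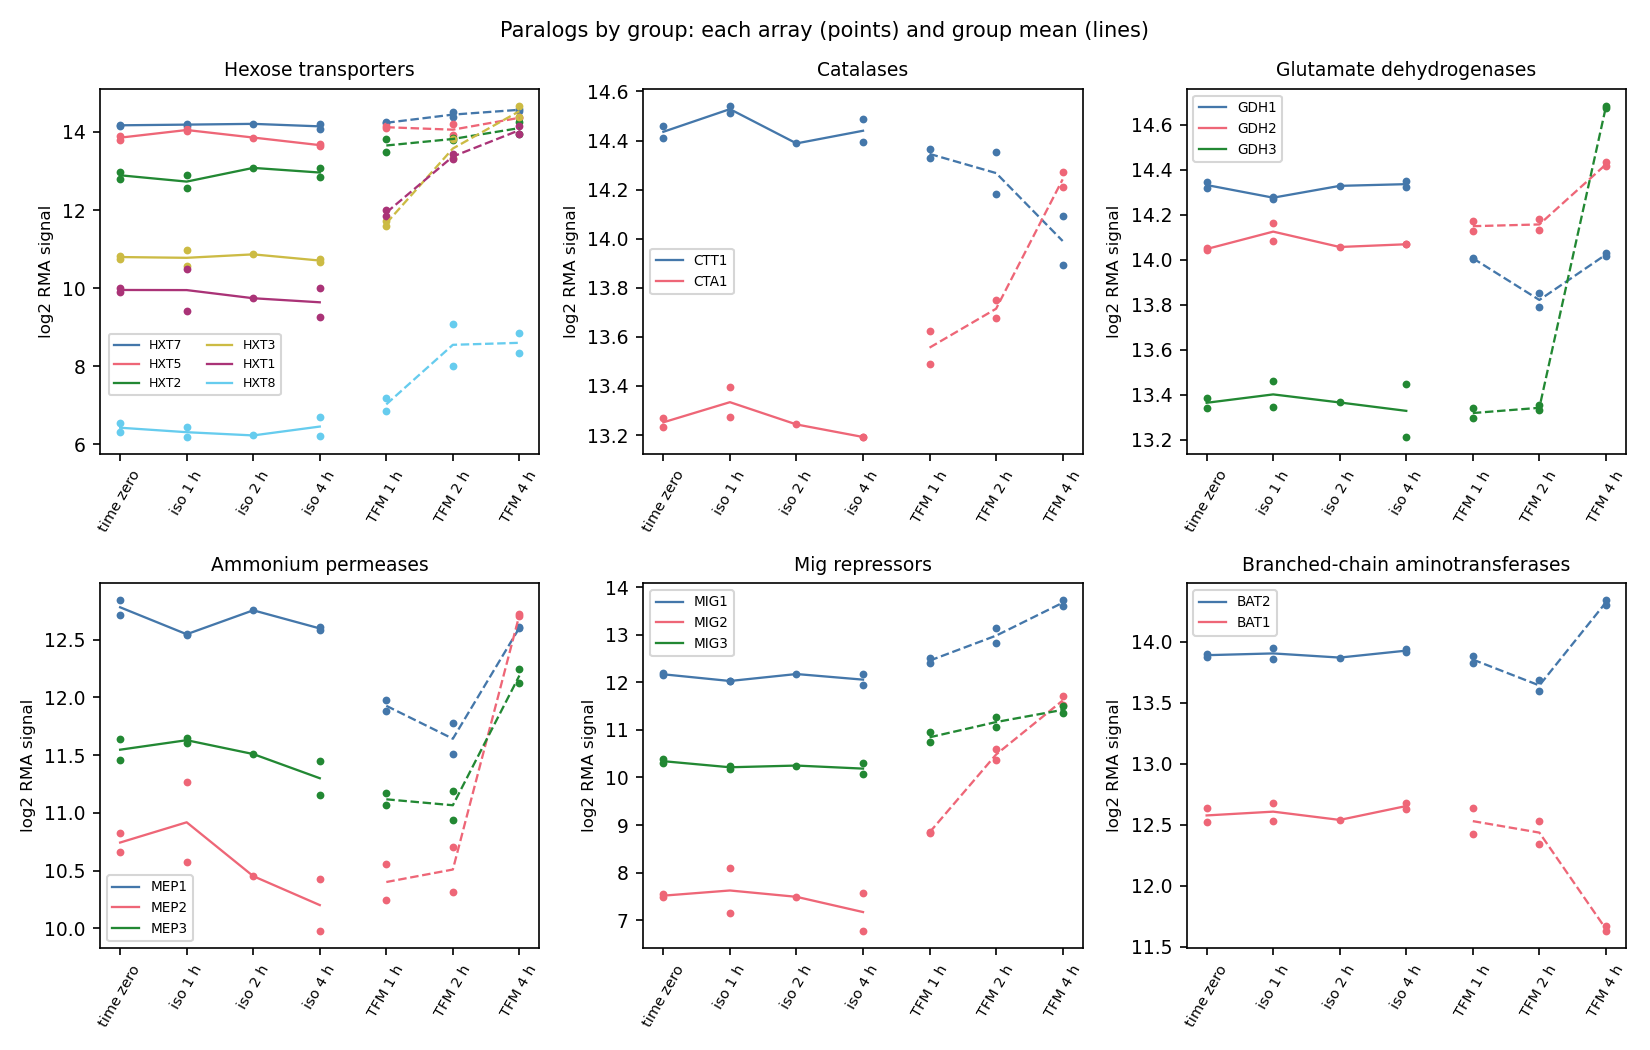
log2 RMA signal of 6 paralog families by group, with 1 point per array and lines through the group means, solid from time zero through isopropanol (iso) at 1, 2 and 4 h and dashed through TFM at 1, 2 and 4 h. HXT1, HXT3 and MIG2 are low at time zero and on all isopropanol arrays and high at TFM 4 h, and the order of CTT1 and CTA1, GDH1 and GDH3, and MEP1 and MEP2 at time zero is reversed at TFM 4 h.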

How the data were processed

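Per the labels' protocols, RNeasy kits gave the total RNA and an Enzo kit the biotin cRNA. The authors deposited log2 signals, made with RMA (version not given in the sources used) per the submitters' processing notes. Of the 5900 probe sets in the table, 5498 have 1 gene, 218 have none and 184 are array controls. Symbols were updated for 12 genes through the RefSeq table for assembly R64. A gene with several probe sets (47) was represented by the one of highest time zero mean, and 114 of the 5449 genes rest on probe sets shared between transcripts.

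Contrasts came from 1 limma model (limma 3.58.1, R 4.3.3) with 7 group means over 13 arrays, default eBayes, and Benjamini-Hochberg adjustment over 5449 genes (two-sided, threshold 0.05). The single array at isopropanol 2 h takes its spread from the remaining groups. The model was tested on simulated data. The number of arrays limits the precision, with a median SE of 0.0811 against isopropanol and 0.0954 against TFM 4 h. Tables and figures used Python 3.11.15, pandas 2.3.3, numpy 2.4.6 and matplotlib 3.10.9.

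Genes and lists were chosen with earlier results of these data known, and the lists describe and support nothing by themselves. The naming rule took the 30 highest genes, the 20 lowest with a standard name, all isozymes, up to 3 highest and 3 lowest genes of each list, strain and mating type genes, the 5 largest replicate differences and, per contrast, the 5 largest changes each way or the 5 smallest p. Some genes outside it, chosen after their values were seen, stand beside these as neighbours in a pathway or pair.

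Deviations of same-numbered arrays correlated at 0.426 (time zero and isopropanol 1 h), 0.598 (time zero and isopropanol 4 h) and 0.266 (isopropanol 1 h and 4 h), and were read as a pairing that rests on these values and on no label. Time zero and TFM 4 h gave 0.0563 and were not taken as paired. Alternatives covered the background level, the probe set chosen, shared probe sets, the variance model, cyclic loess, a filter on dim genes, the arrays in the fit, the replicate block and leaving out each array.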

Additional observations from a re-analysis of the deposited data

Results flagged for a closer look

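Signals appeared at time zero in data outside the main measurement. Of 47 control probe sets that the array names as reporters, 10 were above the background level, the highest at 14.30. Of 218 probe sets that carry no gene name, 14 were in the range of the highest 10% of genes. The reporters were set against the Bacillus subtilis level alone, and neither kind of probe set was used in the comparisons above.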

How the results depend on the processing

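With the median of the Bacillus subtilis controls as the level, 16 genes were near background in place of 83. With the higher of LEU2 and URA3, both deleted in this strain, as the level the number was 61. Leaving out a time zero array gave 82 to 85 genes. Isozyme differences of at least 2 numbered 40 in place of 63 at 1, and leaving out a time zero array gave 63 to 64. In the list counts of the highest 10%, leaving out shared probe sets moved hexose transporters to 1 of 12, translation factors to 5 of 15, histones to 3 of 9 and a-specific genes to 2 of 7. Without time zero replicate 2, a-specific genes also came to 2 of 7. Against isopropanol, limma called 0 genes under every alternative except the trended and robust variance, which called 1, CTR1 (adjusted p 0.0412, with a range of 0.0412 to 1.00 over its alternatives). Leaving out each array in turn gave 0 to 0 calls. With replicate numbers as a block the count was 0, also with only the groups compared, a fit chosen after seeing the data, and for TFM 4 h the replicate block gave 3411 calls. Leaving out an array gave 2897 to 3282 calls against TFM 4 h, and none of the 5 genes of largest difference in each direction lost its call or changed direction under the alternatives run, which were not computed for the other genes named. Cyclic loess gave 1773 higher and 1809 lower at time zero, in place of 1842 and 1636. With 2 arrays per group and no scale per transcript, the levels of different genes rest on probe binding as much as on RNA, and values of the highest 10% lie within 1.52.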
